A study of Mus musculus with 8 samples.

Results

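The genes described here are 32 genes of fatty acid use: the peroxisome proliferator-activated receptors (PPARs) and their cofactor, known PPAR targets, and enzymes that burn fatty acids in mitochondria and peroxisomes. Their rows were found by gene symbol through the platform annotation. The list was chosen with earlier results of these data known. Of the 32, 29 had a row on the array, which names 16420 genes in all, and 3 (Acsl1, Hadha and Pdk4) had none. Of the 29, 18 had a detection p under 0.01 on at least 4 of the 8 arrays and were tested. Another 4 were well above background by their signal although their detection values missed that rule. The remaining 7 were not above background by either measure.

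The study measured RNA of the colonic mucosa, which lines the bowel, in 4 male mice on Illumina MouseRef-8 v2.0 BeadChips. The 2 transgenic mice were Dnmt1LO/LO, TgVillacIGY and the 2 control mice were Dnmt1LO/LO, so all 4 carried the Dnmt1LO/LO alleles. Their strain was mixed (129Sv/B6/D2) and their age 157 days. RNA of each animal went onto 2 arrays, whose values were averaged into 1 replicate (n = 2 mice per genotype). The series title places the contrast as colon with and without inhibition of Dnmt1, the enzyme that copies DNA methylation onto newly made strands. The labels spell out neither allele name nor the cells in which the transgene is active.

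PPARs are nuclear receptors that bind fatty acids and pair with retinoid X receptors on DNA, typically at repeats of the motif AGGTCA spaced by a single base. Their targets move fatty acids into mitochondria on carnitine, shorten them by beta-oxidation in mitochondria and peroxisomes, and store or mobilise lipid. In the colon, the absorptive colonocytes take much of their energy from oxidising short-chain fatty acids made by bacteria.

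Promoter sequence was read for the members, since Dnmt1 acts on cytosines in CG pairs and PPARs bind AGGTCA repeats. Windows of 300 bases, 250 before and 50 after the annotated start, came from the RefSeq table of build GRCm38.p6, which held 31 promoters for 28 of the 32 members; Angptl4, Decr1, Vnn1 and Acaa2 had no entry. The 4 printed here belong to genes that the results turn on. Acaa1b and Acaa1a are neighbouring, near-identical genes with very different values here. Acadm stands for the mitochondrial enzymes, and Plin2 for the PPAR targets low in both transgenic mice. Each is written 5′ to 3′ on the strand of the gene, with every CG pair in capitals.
Acaa1b promoter, chr9:119157044-119157343, minus strand: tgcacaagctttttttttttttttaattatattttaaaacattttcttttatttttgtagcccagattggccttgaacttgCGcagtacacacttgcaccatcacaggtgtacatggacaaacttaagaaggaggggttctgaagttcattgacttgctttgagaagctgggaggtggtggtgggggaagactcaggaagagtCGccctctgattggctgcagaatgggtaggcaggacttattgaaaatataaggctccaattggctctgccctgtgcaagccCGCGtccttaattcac
Acaa1a promoter, chr9:119341044-119341343, plus strand: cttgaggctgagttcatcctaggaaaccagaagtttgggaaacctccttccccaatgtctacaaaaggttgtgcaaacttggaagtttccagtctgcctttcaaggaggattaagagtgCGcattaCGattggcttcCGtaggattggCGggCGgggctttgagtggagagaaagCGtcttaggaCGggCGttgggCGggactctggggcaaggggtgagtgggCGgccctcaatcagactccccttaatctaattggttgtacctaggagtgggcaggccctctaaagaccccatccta
Acadm promoter, chr3:153944594-153944893, minus strand: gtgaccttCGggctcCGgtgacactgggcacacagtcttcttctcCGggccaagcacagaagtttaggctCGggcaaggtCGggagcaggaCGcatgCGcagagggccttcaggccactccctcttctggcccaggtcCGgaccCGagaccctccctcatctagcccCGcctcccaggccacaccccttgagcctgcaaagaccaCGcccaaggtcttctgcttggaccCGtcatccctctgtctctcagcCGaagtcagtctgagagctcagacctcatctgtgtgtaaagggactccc
Plin2 promoter, chr4:86670010-86670309, minus strand: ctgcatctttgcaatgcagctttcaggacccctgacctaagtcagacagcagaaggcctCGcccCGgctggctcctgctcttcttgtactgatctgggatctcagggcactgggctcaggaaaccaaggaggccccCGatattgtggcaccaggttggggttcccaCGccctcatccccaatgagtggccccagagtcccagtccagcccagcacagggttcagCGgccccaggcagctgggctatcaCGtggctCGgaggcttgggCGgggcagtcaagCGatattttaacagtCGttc

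These windows hold 4 CG pairs for Acaa1b, 10 for Acaa1a, 13 for Acadm and 10 for Plin2. Across the member promoters the median was 13 CG pairs, against 7 over all 32851 promoters of the table. The motif AGGTCA, searched on both strands, was found in 9 of the 31 member promoters (29.0%), against 5340 of all promoters (16.3%). In Acadm it lies on the opposite strand from base 2 of the printed sequence, and in Plin2 on the opposite strand from base 33, both counted from the 5′ end. The full repeat AGGTCANAGGTCA, whose copies also count as AGGTCA, was in 0 member promoters and in 13 of all promoters (0.0396%). A match is a description of the letters in the window, and DNA methylation was not measured on these arrays.

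No member passed the test of genotype. With limma on 2 against 2 mice and Benjamini-Hochberg adjustment over all rows tested, 0 of 18 members had an adjusted p under 0.05, where 9 of 6982 rows (0.129%) did. Angptl4 came nearest, at an adjusted p of 0.0914 by limma, with all its transgenic signals under the background limit. The other 17 lay between 0.592 and 0.935. At an unadjusted p under 0.05 by limma, Angptl4 was the only member (1 of 18), where 586 of 6982 rows were. Read with the 4 members added by signal, 0 of 22 passed where 14 of 7524 rows (0.186%) did. An exact permutation test of 2 against 2 mice cannot give a two-sided p below 0.333, so single values were left to the fit across all rows.

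The members' values lay to one side all the same. In all 22 members above background the mean of the transgenic mice was below that of the control mice, as it was in 51.3% of all rows. Their median change was -0.42 on the log2 scale, against -0.01 over all rows. The members share pathways and the same 4 mice, so these counts are a description of the list and no test of it.

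Most of that difference sat in 1 animal. Transgenic mouse 1 was below both control mice in 21 of the 22 members, the exception being Acot1, where 41.5% of all rows were below. Transgenic mouse 2 was below both control mice in 9 members, where 40.4% of all rows were, and above both in 9 members, where 38.3% of all rows were. Its other 4 members lay between the control mice. The median change against the control mean was -0.71 for transgenic mouse 1 and 0.03 for transgenic mouse 2 (log2), against 0.014 and -0.003 over all rows. Only 8 members had both transgenic mice below both control mice (of 22, with 20.8% of all rows): Angptl4, Plin2, Acaa1a, Acaa1b, Cat, Pex11a, Ech1 and Ppargc1a.

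Spread between the transgenic mice was larger than between the control mice. Transgenic mouse 1 had the lower level in 20 of 22 members, as in 46.2% of all rows. It was more than 2-fold below transgenic mouse 2 in 7 members (Pparg, Ppargc1a, Slc25a20, Acadl, Hadh, Acaa2 and Acaa1b), where 5.75% of all rows were. For Hadh this rests on signals of transgenic mouse 1 under the background limit, and the bound is at least 1.70-fold. Over the members the median SD was 0.62 within the transgenic genotype and 0.12 within the control genotype (log2, n = 2 each), and over all rows 0.22 and 0.10. The median gap between the mice of a genotype was 0.88 for the transgenic and 0.17 for the control mice. The 2 arrays of a mouse differed by a median of 0.07 for transgenic mouse 1, 0.07 for transgenic mouse 2, 0.16 in control mouse 1 and 0.12 in control mouse 2.

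**Figure D1:**
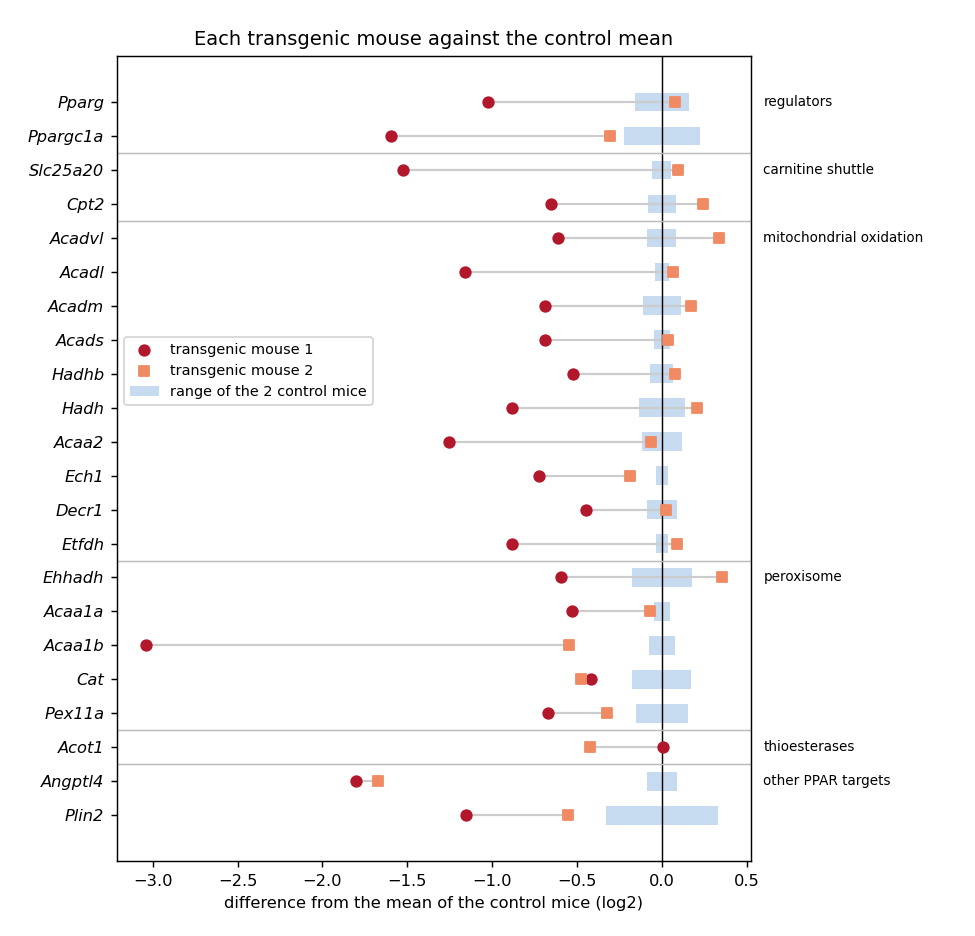
Difference of each transgenic mouse from the mean of the control mice (x axis, log2) for the 22 members above background, grouped by role. Circles are transgenic mouse 1, squares transgenic mouse 2, and pale bars span the 2 control mice. Circles lie left of the bar in 21 members, while squares lie left of it in 9; Angptl4 in both mice and Hadh in transgenic mouse 1 are plotted at values under the background limit.

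Which mice enter the fit decides how many members pass. Without transgenic mouse 2, 4 of 18 members passed, where 12.2% of rows did: Acaa1b (adjusted p 0.00468), Angptl4 (0.0103), Acaa2 (0.0248) and Ppargc1a (0.0256), all by limma with transgenic mouse 1 assumed to vary as the control mice do. Without transgenic mouse 1, Angptl4 alone passed (adjusted p 0.0396), where 0.816% of rows did. With all 8 arrays fitted and the mouse as a random effect, Angptl4 again was the 1 member called (adjusted p 0.000409 by limma), where 2.65% of rows were. That fit counts the 2 arrays of each mouse and adds no mice. In all these fits the transgenic signals of Angptl4 were under the background limit. Its row passed the detection rule only through the control arrays, so these calls are no separate support for it. With the background estimated from all rows, changes of dim members shrank, to -0.17 for Angptl4, -0.21 for Plin2, -0.16 for Ppargc1a and -0.74 for Acaa1b (log2). Over the alternatives the limma adjusted p reached 1 for Acaa1b, Acaa2 and Ppargc1a and 0.729 for Angptl4.

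Markers of cell types and the amount of signal differed between the mice as well. Of 9 colonocyte markers 6 were above background, and their summed linear level was 47033 for transgenic mouse 1 and 86463 for transgenic mouse 2, against 84140 and 85972 in the control mice. Most of that sum is Guca2a, and over the other 5 markers it was 4402 and 24388, against 25217 and 25755. All 6 were lower in transgenic mouse 1 than in both control mice, where 41.5% of all rows were, with a median of -2.26 (log2). The median of transgenic mouse 2 was 0.01, with Aqp8 (-0.66) and Scnn1b (under the background limit, at least 3.80-fold lower) below both control mice there too. Slc26a3, a defining chloride transporter of colonocytes, was above background on no array, and whether its row reaches the transcript is not known. The 7 general epithelial markers had medians of 0.01 and 0.11 in transgenic mice 1 and 2, and in transgenic mouse 1 they ran from -1.21 for Krt19 and -0.46 for Krt8 to 0.37 for Krt18. Tuft cell markers were above both control mice in both transgenic mice in 5 of 5 genes above background (medians 2.24 and 1.71), where 22% of all rows were. The 4 T and NK cell markers above background were below both control mice in both transgenic mice, where 20.8% of all rows were. Their signals were dim, and Cd8a and Ncr1 were above background on no array. In transgenic mouse 1 all 4 were under the background limit on both arrays. The bounds there ran from at least 1.496-fold (Cd3g) to at least 2.127-fold (Cd3e) below the control mean. The median of -1.15 for that mouse rests on values under the limit, and the median of transgenic mouse 2 was -0.53 (log2). The 5 enteroendocrine markers above background had medians of 1.36 and -0.39 but did not move together. In transgenic mouse 1, Pyy (1.36), Gcg (1.38) and Cck (2.345) were above the control mean, and Chga (-0.57) and Chgb (-0.15) were below it. Goblet markers had medians of -0.03 and -0.085, running from -0.905 for Tff3 to 1.283 for Spdef in transgenic mouse 1. Stem and cycling markers had medians of 0.64 and 0.56. The control mice differed from each other in Sis, a small intestine marker above background only on the arrays of transgenic mouse 2 and control mouse 2. The mean deposited signal was 698 and 753 on the arrays of transgenic mouse 1, 998 and 1019 on those of transgenic mouse 2, and 866 to 1080 on the control arrays. The part of cell makeup and of signal in the members' values was not tested. In bulk tissue, fewer cells of a type and less RNA per cell cannot be told apart.

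Fat tissue is another place where Pparg, Plin2 and Angptl4 are active. Of 7 adipocyte markers with a row, Adipoq, Fabp4, Plin1, Retn, Lep and Lipe were above background on no array. Cidec was above it on 4 of 8 arrays and on neither of transgenic mouse 1, with a linear level of 151 in transgenic mouse 2, against 112 and 73 in the control mice. Macrophage markers and those of fibroblasts and smooth muscle were above background in 0 of 6 and 0 of 8 genes. Among 6 endothelial markers Vwf alone was, with both transgenic mice above both control mice. Dnmt1 itself, read as a check of the labels, was 7.09 ± 0.49 in transgenic mice and 9.29 ± 0.16 in control mice (log2, SD, n = 2). Transgenic mouse 1 was -1.86 from the control mean and transgenic mouse 2 was -2.54. For genotype, limma put the difference at -2.20 ± 0.28 (SE) and its adjusted p at 0.129.

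Among the regulators, Ppara, the receptor best known for fasting liver, was above background on no array, and neither was Ppard of the wider pathway. Pparg, the receptor most abundant in fat and in colonic epithelium, gave levels of 9.45 and 9.60 on the arrays of transgenic mouse 1 and 10.63 and 10.62 on those of transgenic mouse 2. Control levels were 10.72 and 10.69 in mouse 1 and 10.30 and 10.48 in mouse 2 (log2). Transgenic mouse 1 stood alone at the low end, and transgenic mouse 2 lay within the range of the control arrays. The change was -0.47 ± 0.40 (SE), with a limma adjusted p of 0.763 among rows selected by signal.

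Ppargc1a encodes the coactivator PGC-1alpha, which raises mitochondrial gene expression. Its levels were 6.22 and 6.98 for transgenic mouse 1 and 7.98 and 7.81 for transgenic mouse 2, against 8.06 and 7.89 in control mouse 1 and 8.42 and 8.42 in control mouse 2 (log2). Both transgenic means were below both control means, but an array of transgenic mouse 2 overlapped those of control mouse 1. On 1 of the 4 transgenic arrays the row was not detected. Its change of -0.95 ± 0.47 (SE) had an adjusted p of 0.644 by limma, and differed 2.45-fold between the transgenic mice.

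Among the members, uptake and binding of fatty acids could not be followed. Cd36, a fatty acid translocase, and Fabp1 and Fabp2, the liver and intestinal fatty acid binding proteins, were detected on 0 of 8 arrays. Cpt1a, which loads fatty acids onto carnitine at the outer mitochondrial membrane, was also detected on none. The probe sequences were not used here, so whether these rows reach the transcripts is not known from the values. The same holds for every other gene above background on no array.

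The 2 later steps of the carnitine shuttle were above background, and Slc25a20 had the wider gap. It encodes the carrier that brings acylcarnitines across the inner membrane. Deposited signals were 725.7 and 830.1 for transgenic mouse 1 and 3361 and 3063 for transgenic mouse 2, against 3050 and 2722 in control mouse 1 and 2934 and 2510 in control mouse 2. Transgenic mouse 1 was lower on both arrays than any other mouse, and transgenic mouse 2 was at the high end of the controls. After normalization transgenic mouse 1 was -1.53 from the control mean and transgenic mouse 2 was 0.10 (log2), a gap of 3.08-fold between them. Genotype as a whole gave -0.72 ± 0.55 (SE; adjusted p 0.737 by limma among rows selected by signal). Slc25a20 was singled out after its values were seen.

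Cpt2, which takes the fatty acid off carnitine inside the mitochondrion, averaged 11.53 ± 0.63 in transgenic mice and 11.74 ± 0.12 in control mice (log2, SD, n = 2). Transgenic mouse 1 was -0.66 and transgenic mouse 2 was 0.24 from the control mean. The mice of 1 genotype thus lay on both sides of the other.

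Mitochondrial beta-oxidation had 10 members above background. All 10 were below both control mice in transgenic mouse 1, where 41.5% of all rows were, with a median of -0.71 (log2). In transgenic mouse 2 the median was 0.07. There 6 members were above both control mice (38.3% of all rows), 3 lay between them and only Ech1 was below both (40.4% of all rows). By genotype the 10 changes ran from -0.66 to -0.14 and none passed the test.

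The acyl-CoA dehydrogenases start each round of oxidation and differ in the chain length they take. From the control mean, transgenic mouse 1 was -0.61 in Acadvl (very long chains), -1.16 in Acadl (long), -0.69 in Acadm (medium) and -0.69 in Acads (short). In the same order, transgenic mouse 2 was 0.34, 0.06, 0.17 and 0.04. Acads levels were 11.19 and 10.95 for transgenic mouse 1 and 11.80 and 11.79 for transgenic mouse 2, against 11.79 and 11.82 in control mouse 1 and 11.67 and 11.74 in control mouse 2. Only transgenic mouse 1 was apart, and the Acads change of -0.33 ± 0.29 (SE) had an adjusted p of 0.772 by limma.

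Later steps showed the same order of mice. Hadhb, the beta subunit of the mitochondrial trifunctional protein, was -0.52 for transgenic mouse 1 and 0.08 for transgenic mouse 2. Hadh, the dehydrogenase for shorter chains, was not above background on either array of transgenic mouse 1, which puts it at least 1.47-fold below the control mean, and it was 0.21 from that mean in transgenic mouse 2. A further Hadh row was above background on no array and gave no value to compare.

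Acaa2, the thiolase that releases acetyl-CoA, had levels of 8.66 and 8.31 for transgenic mouse 1 and 9.67 and 9.69 for transgenic mouse 2. Control levels were 9.38 and 9.86 in mouse 1 and 9.87 and 9.85 in mouse 2. Both arrays of transgenic mouse 1 were below all others, and transgenic mouse 2 lay inside the control range. The change was -0.66 ± 0.42 (SE; adjusted p 0.706 by limma).

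Ech1 and Decr1 handle double bonds, Ech1 by moving them and Decr1 by reducing them. Ech1 gave 13.10 and 13.06 for transgenic mouse 1 and 13.57 and 13.67 for transgenic mouse 2, against 13.67 and 13.87 in control mouse 1 and 13.81 and 13.88 in control mouse 2. Both transgenic means lay below both control means, with 1 array of transgenic mouse 2 level with the lowest control array. Its change was -0.46 ± 0.24 (SE; adjusted p 0.655 by limma).

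Decr1 was 8.41 and 8.17 for transgenic mouse 1, 8.79 and 8.75 for transgenic mouse 2, 8.73 and 8.57 in control mouse 1 and 8.68 and 8.99 in control mouse 2. Transgenic mouse 2 could not be set apart from the control mice. Etfdh, which passes electrons from these dehydrogenases to ubiquinone, was -0.88 for transgenic mouse 1 and 0.09 for transgenic mouse 2.

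**Figure D2:**
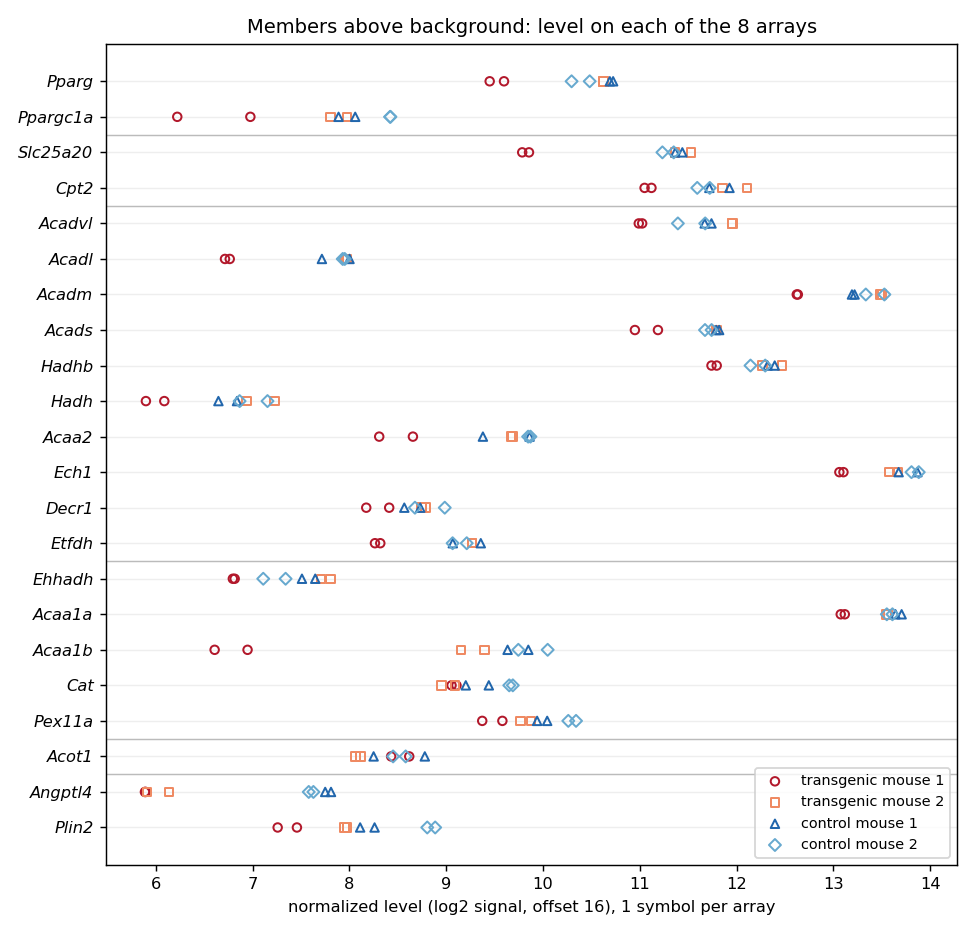
Normalized level (x axis, log2) of the 22 members above background on each of the 8 arrays, with a row for each gene. Circles and squares are transgenic mice 1 and 2, triangles and diamonds control mice 1 and 2. The 2 symbols of a mouse mostly lie close together, and the circles are at the left of most rows.

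Of the 5 peroxisomal members, 4 had both transgenic mice below both control mice, where 1 of 10 mitochondrial members and 20.8% of all rows did. No test was made of that difference, and the wider list of pathway genes did not share it, with 3 of 6 peroxisomal and 7 of 13 mitochondrial genes. Ehhadh, the peroxisomal bifunctional enzyme and a classical PPAR-alpha target, was the exception, at -0.60 for transgenic mouse 1 and 0.35 for transgenic mouse 2.

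Acaa1b, a peroxisomal thiolase, showed the widest gap between the transgenic mice of any member. Deposited signals were 165.7 and 153.3 for transgenic mouse 1 and 843.0 and 749.0 for transgenic mouse 2, against 936.6 and 975.4 in control mouse 1 and 1285 and 846.8 in control mouse 2. Transgenic mouse 1 was near the background limit of its arrays, which lay at 131 and 138, while all other arrays were far above theirs. Levels were 6.95 and 6.61 for transgenic mouse 1, 9.40 and 9.15 for transgenic mouse 2, 9.63 and 9.85 in control mouse 1, and 10.05 and 9.75 in control mouse 2 (log2). Transgenic mouse 1 was 5.64-fold below transgenic mouse 2 and 8.23-fold below the control mean. Over genotypes the change of -1.79 ± 0.82 (SE) was well short of the threshold, with an adjusted p of 0.638 by limma.

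Acaa1a, its neighbour 183935 bases away on chromosome 9, encodes a near-identical thiolase. It was 13.08 and 13.12 for transgenic mouse 1 and 13.55 and 13.56 for transgenic mouse 2, against 13.64 and 13.70 in control mouse 1 and 13.55 and 13.61 in control mouse 2. Transgenic mouse 1 was low on both arrays, and transgenic mouse 2 touched the control range. The change was -0.30 ± 0.22 (SE; adjusted p 0.728 by limma). Because the 2 transcripts are so alike, signal from one may reach the probe of the other, and this was not checked.

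Cat encodes catalase, which destroys the hydrogen peroxide that peroxisomal oxidation makes. Its levels were 9.11 and 9.06 for transgenic mouse 1 and 9.09 and 8.95 for transgenic mouse 2, against 9.20 and 9.44 in control mouse 1 and 9.65 and 9.69 in control mouse 2. All 4 transgenic arrays were below all 4 control arrays, and the transgenic mice were alike. A change of -0.45 ± 0.20 (SE) had an adjusted p of 0.631 by limma.

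Pex11a, a membrane protein that drives peroxisome division, was 9.58 and 9.37 for transgenic mouse 1 and 9.87 and 9.77 for transgenic mouse 2. Control levels were 9.94 and 10.04 in mouse 1 and 10.26 and 10.34 in mouse 2. Here too all 4 transgenic arrays were below all 4 control arrays, by a small margin between transgenic mouse 2 and control mouse 1. The change of -0.50 ± 0.22 (SE) had an adjusted p of 0.630 by limma.

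Acot1, a cytosolic thioesterase that cuts acyl-CoA, was the 1 member in which transgenic mouse 1 was not below both control mice. Levels were 8.43 and 8.62 for transgenic mouse 1 and 8.12 and 8.06 for transgenic mouse 2, against 8.25 and 8.78 in control mouse 1 and 8.58 and 8.45 in control mouse 2. Transgenic mouse 2 was the low one, and transgenic mouse 1 lay among the control arrays. The change was -0.21 ± 0.21 (SE; adjusted p 0.801 by limma). Its close relative Acot2, 15625 bases away on chromosome 12, was above background on no array, and shared signal between them was not checked.

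Angptl4 had the smallest p of any member by limma, but it passed the detection rule only through the control arrays. It encodes a secreted inhibitor of lipoprotein lipase and is a target of all PPARs. Deposited signals were 114.6 and 118.4 for transgenic mouse 1 and 153.6 and 148.7 for transgenic mouse 2, against 296.2 and 288.8 in control mouse 1 and 298.2 and 239.0 in control mouse 2. Every transgenic array was below every control array, and the row was detected on 0 of 4 transgenic and 4 of 4 control arrays.

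As a level, Angptl4 averaged 5.96 ± 0.09 in transgenic mice and 7.69 ± 0.12 in control mice (log2, SD, n = 2). The transgenic levels lie under the background limit, where spread is compressed. Their SD, and the SE and adjusted p of the fit, therefore rest on values near the floor. With the transgenic arrays held at the lowest detected level, Angptl4 was at least 2.64-fold lower in transgenic mice. The fitted change was -1.74 ± 0.18 (SE), with an adjusted p of 0.0914 by limma that ran from 0.000409 to 0.729 over the alternatives. Since all 4 transgenic signals lay under the limits of their arrays (131 to 171), each mouse gives only a bound, at least 2.59-fold below the control mean for transgenic mouse 1 and at least 2.69-fold for transgenic mouse 2. Without background correction the change was -1.06 (log2), smaller than this bound, which holds on the corrected scale.

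Plin2, a coat protein of lipid droplets, was 7.46 and 7.26 for transgenic mouse 1 and 7.95 and 7.97 for transgenic mouse 2. Control levels were 8.11 and 8.26 in mouse 1 and 8.89 and 8.80 in mouse 2. All transgenic arrays were below all control arrays, yet control mouse 1 was nearer to transgenic mouse 2 than to control mouse 2. The change of -0.86 ± 0.33 (SE) had an adjusted p of 0.592 by limma. Vnn1, a pantetheinase and PPAR-alpha target, was above background on no array.

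**Figure D3:**
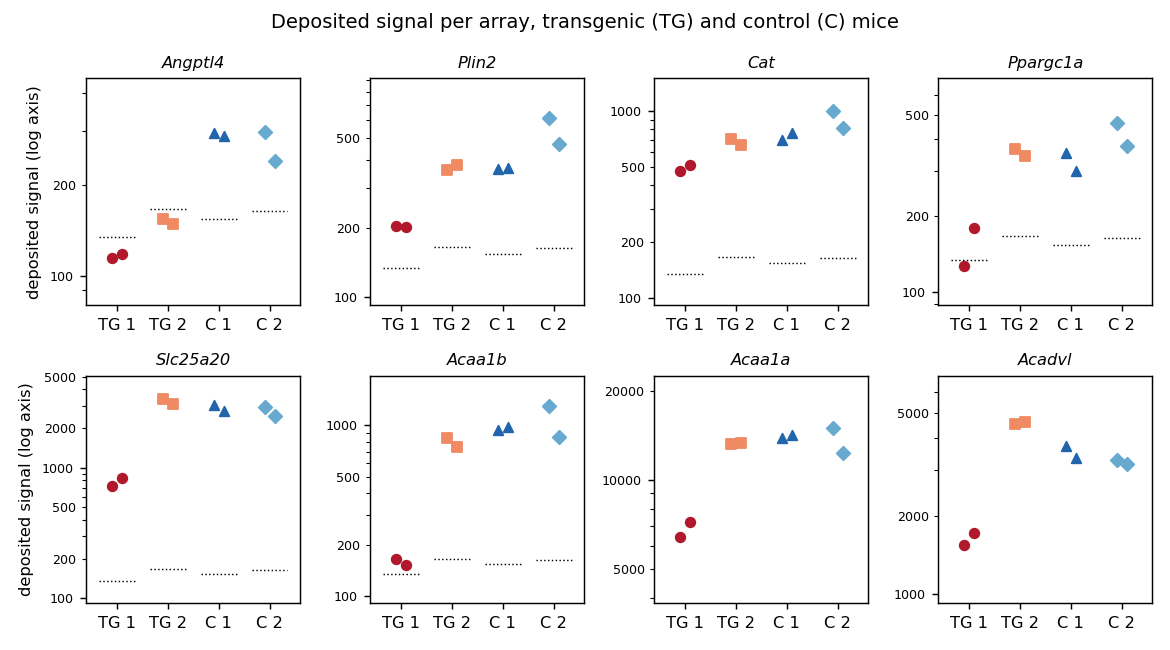
Deposited signal (y axis, log scale, before normalization) on each array for 8 members, with transgenic mice (TG 1, TG 2) left of control mice (C 1, C 2). Dotted lines are the mean signal limit of each mouse's arrays and are absent where they fall below the panel. Angptl4 is at or under the limit in both transgenic mice, while Slc25a20, Acaa1b and Acadvl are low in TG 1.

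A wider list of 67 genes gave the rest of the pathway, with 59 on the array and 36 tested. None of the 36 passed, with adjusted p-values of 0.483 to 0.983 by limma, where 0.129% of rows passed. Their median change was -0.15 (log2), with 24 negative and 12 positive. By signal 43 were above background: transgenic mouse 1 was below both control mice in 33 of them (41.5% of all rows), and transgenic mouse 2 in 18 (40.4% of all rows). Both transgenic mice were below both control mice in 16 of the 43, where 20.8% of all rows were, and above both in 4, where 22% of all rows were. The difference between this list and the members was not tested.

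Ketone bodies are made from the acetyl-CoA of fatty acid oxidation. Acat1, a thiolase that acts on acetoacetyl-CoA, was above background on no array. Bdh1, which interconverts the ketone bodies, averaged 10.41 ± 0.32 in transgenic mice and 10.41 ± 0.15 in control mice (log2, SD, n = 2; adjusted p 0.998 by limma among rows selected by signal). Oxct1, which starts their use as fuel, averaged 11.69 ± 0.28 in transgenic mice and 11.60 ± 0.11 in control mice (adjusted p 0.904), and the sign of its change turned under median scaling, to -0.07. Neither Bdh1 nor Oxct1 was separated by genotype.

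Of the other pathway genes, the 6 with the smallest p were Nr1h3, Slc27a2, Mgll, Acss1, Lpl and Txnip. Nr1h3, the oxysterol receptor LXR-alpha, averaged 6.93 ± 0.39 in transgenic mice and 7.88 ± 0.32 in control mice (adjusted p 0.483 by limma). Mgll, which frees fatty acids from monoacylglycerol, was under the background limit on both arrays of transgenic mouse 1, at least 5.55-fold below the control mean of 8.79 ± 0.42 (SD, n = 2), and transgenic mouse 2 was -0.81 from that mean. Lpl, the lipoprotein lipase that Angptl4 inhibits, averaged 9.49 ± 1.08 in transgenic mice and 10.61 ± 0.20 in control mice.

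These 3 genes were low in both transgenic mice, as was Txnip, an inhibitor of thioredoxin, at 12.97 ± 0.55 in transgenic mice and 13.59 ± 0.15 in control mice. Slc27a2 and Acss1 were above both control mice in both transgenic mice, where 22% of all rows were. Slc27a2, a very long chain acyl-CoA synthetase and transporter, was 1.61 from the control mean in transgenic mouse 1 and 0.55 from it in transgenic mouse 2 (log2; genotype change 1.08 ± 0.39 SE, adjusted p 0.560 by limma). Acss1, which activates acetate in mitochondria, averaged 13.08 ± 0.03 in transgenic mice and 12.69 ± 0.14 in control mice (adjusted p 0.630). Over all 43 pathway genes above background, the genotype change was negative in 30 and positive in 13, where 51.3% of all rows were negative.

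**Figure D4:**
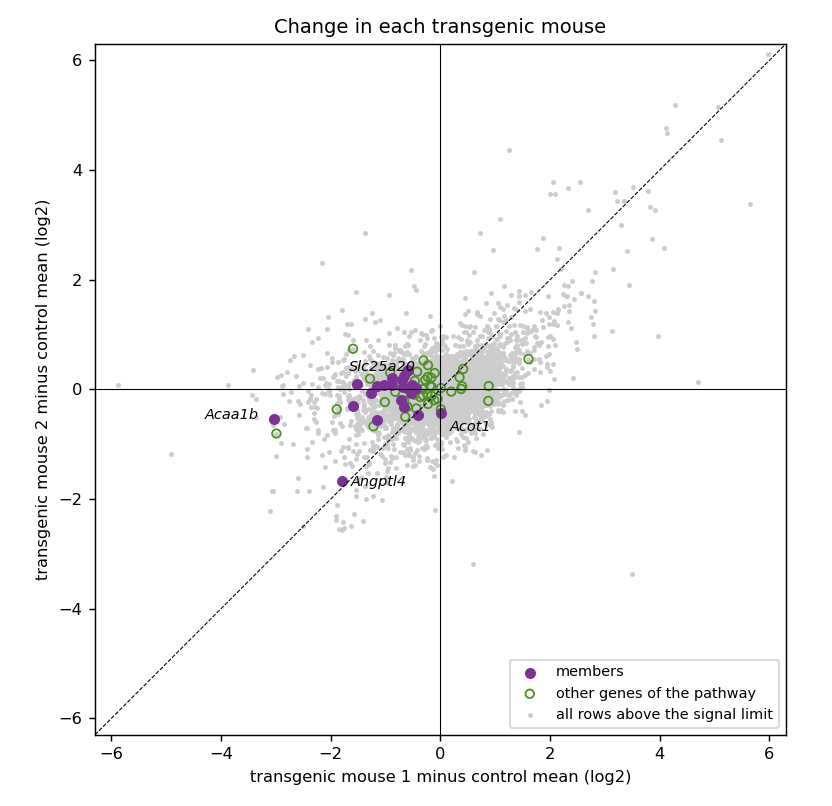
Change in transgenic mouse 1 (x axis) against change in transgenic mouse 2 (y axis), each relative to the mean of the control mice (log2), for the 7524 rows above the signal limit. Filled points are the 22 members, open circles 43 other pathway genes, and the dashed line marks equal change. Members spread to the left along y = 0, and of the 4 labelled genes Angptl4 lies nearest the dashed line.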

How the data were processed

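The deposited intensity values are linear signals of each row on each array, neither background subtracted nor normalized, as the values show. Beside each signal the authors deposited a detection fraction. The file headers call this fraction a p, yet it increases with the signal (rank correlation 0.945 to 0.954), and 1 minus it was used as the detection p. The log2 values of the series matrix were quantile normalized by the authors, as those values show. BeadStudio and Partek are named per the submitters' processing notes.

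Background was corrected with normexp in limma 3.58.1 (R 4.3.3, statmod 1.5.0) from rows whose detection values are whole multiples of 1/798, with an offset of 16, then quantile normalization and log2. The offset makes changes of dim rows too small. Rows with a detection p under 0.01 on at least 4 of 8 arrays were tested (6982 rows). The other 4177 rows (23.1% of 18097) have detection values that look like means over several probes, and bright ones fail that rule. A rule by signal, added after the data were seen, therefore kept rows that reach, on at least 4 arrays, the lowest signal of a whole-step row with p under 0.01 (131 to 183.5 by array, 7524 rows, 717 added and 175 lost). Counts of mice and medians over members use that rule, and adjusted p-values use the detection rule unless said otherwise.

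Values of the 2 arrays were averaged per mouse, and limma (lmFit, eBayes) compared 2 transgenic with 2 control mice, two-sided, at an adjusted p of 0.05. Where no array of a genotype detected a row, the bound takes, per array, the higher of its own level and the lowest level of a detected whole-step row; the same bound is given for a single mouse with both signals under the limit. Rows were named through the platform annotation, and a gene with several rows is represented by the brightest. Levels per array are given for the 12 members of smallest p and the regulators above background; of the other pathway genes the ketone body genes and the 6 of smallest p are named, except that some genes are not reported here. Members, lists and tests were chosen with earlier results of these data known. The number of mice limits the precision.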

Additional observations from a re-analysis of the deposited data

How the results depend on the processing

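Under 16 alternatives the members' median change over genotypes kept its sign, at -0.49 to -0.25 (log2; -0.33 as reported for the 18 tested) where no mouse was left out, and -0.679 to -0.067 with a mouse left out. The median of transgenic mouse 1 lay between -0.90 and -0.57 and that of transgenic mouse 2 between -0.13 and 0.03. Members called were 0, except 1 with the mouse as a random effect, and 0 to 4 with a mouse left out. Both transgenic mice were below both control mice in 8 of the 18 members, in 6 to 9 over the alternatives that keep all mice; with a mouse left out, 9 to 17 members had the mice that remained in that order (17 for transgenic mouse 1 alone). The other pathway genes' median was -0.15, -0.245 (median scaling) to -0.058 (detected on all 8 arrays) with all mice kept, -0.061 with background from all rows and -0.071 with no detection filter, and -0.233 to 0.006 with a mouse left out. Rows called over the whole array were 9, but 0 with background from all rows, 2 with no detection filter, 1 when detected on all 8 arrays, 185 with the mouse as a random effect, 14 by signal, and 0 to 851 with a mouse left out (0 without control mouse 1 and 0 without control mouse 2 by limma, with 333 and 199 rows at an unadjusted p under 0.05). With background from all rows, the causes of the lost calls were not tested; there the background SD was 389 to 682, against 13.7 to 24.2. That setting also took Slc27a2 to 0.185, Mgll to -0.375 and Nr1h3 to -0.136.

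Leaving out a mouse turned the sign of 13 members and 2 other pathway genes. The change ran from -0.66 to 0.24 for Cpt2, -0.61 to 0.34 for Acadvl, -0.69 to 0.17 for Acadm, -0.69 to 0.037 for Acads, -0.52 to 0.079 for Hadhb, -0.88 to 0.21 for Hadh, -0.45 to 0.027 for Decr1, -0.60 to 0.35 for Ehhadh, -0.43 to 0.009 for Acot1, -1.025 to 0.076 for Pparg, -1.53 to 0.10 for Slc25a20, -1.16 to 0.06 for Acadl, -0.88 to 0.09 for Etfdh, -0.10 to 0.30 for Oxct1 and -0.23 to 0.23 for Bdh1. Median scaling moved the median of all rows to -0.07, with 40.8% of rows higher in transgenic mice, against 48.5% as reported, and Oxct1 to -0.065. No paired analysis was possible because replicate numbers in the labels mark the 2 arrays of 1 mouse, which were averaged.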
